A study of Mus musculus with 10 samples.

Results

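The pituitary intermediate lobe (IL) of wild-type (WT) mice is described here by the abundance of its transcripts. The members are the 4 samples whose genotype label is WT, of 10 bulk RNA samples in the study, and each was taken with its column of the deposited table. The other samples were 3 p27-/- and 3 p27-/-;Sox2+/- IL, which were not compared here. WT mice carried neither deletion and were 2 to 3 months old according to the labels, with 1 library per WT sample. The study lists 2 females and 2 males for this WT group, and the labels used here do not give the sex of each sample. The table held 29527 genes, and all were ranked by the mean of their 4 WT values.

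Melanotrophs are the main endocrine cells of the IL. They make proopiomelanocortin, the product of Pomc, and cut it with prohormone convertase 2, the product of Pcsk2, down to alpha-melanocyte-stimulating hormone, whereas corticotrophs of the anterior lobe use mainly prohormone convertase 1 and stop at adrenocorticotropic hormone. The T-box protein TBX19 activates transcription of Pomc, PAX7 is found in melanotrophs but not in corticotrophs, and dopamine and GABA from hypothalamic nerve endings hold back secretion. The lobe is a thin layer between the anterior and the posterior lobe, and it is lined by stem cells along the cleft.

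A level is given below as the deposited log2 normalised value, in the order of WT replicates 1 to 4, with the mean ± SD over the 4 samples. The transformation behind the log2 values is not stated. Genes with few reads have values below 0 that hardly differ between samples, and a linear value, 2 to the power of the level, is not a read count for them. Levels were not divided by transcript length, and ranks, list medians and words such as highest refer to them as deposited. Differences between named genes are given per kilobase of the longest transcript, and a higher rank alone does not mean more molecules. A gene had the same length in every sample, so the SD of such a difference holds no error of the lengths. A gene was counted as above the minimum where its mean reached a linear value of 10, or a level of 3.32. Of the 29527 genes ranked, 17309 were above it, and list percentiles are over all 29527. The median level was 4.55 over all genes ranked and 7.22 over those above the minimum. A list median between these lies in the upper part of all genes but the lower part of those above the minimum. Ranks per kilobase were taken among the 14865 genes above the minimum with a length. In bulk RNA, fewer cells of a type and less RNA per cell cannot be told apart. The depth of the samples is unknown from log2 values, and the number of samples limits the precision.

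The 4 libraries were not alike in every respect. By Xist and Y-linked genes, replicates 1 and 2 had the female pattern and replicates 3 and 4 the male pattern, and means and SDs pool both. Replicate 2 stood apart in markers of the neighbouring lobes, among others. Prl and 6 other anterior lobe markers were highest in it, and all 9 posterior lobe markers above the minimum were lowest in it. It was also lowest in 11 of 13 mitochondrially encoded genes, 10 of 13 macrophage markers and all 4 myelin markers above the minimum. In proliferation genes above the minimum it was highest in 10 of 18. Replicate 1 was highest in 71 of 78 ribosomal protein genes and in 11 of 13 macrophage markers. It was also highest in 24 of 36 nuclear respiratory chain genes, 14 of 25 granule genes and 10 of 17 glycolytic genes. In clock genes it was highest in 1 of 18, and in receptors in 3 of 22. Counts of list members highest or lowest in a sample, here and below, were not set against the share over all genes. For genes in which replicate 2 lay well apart from the other 3, the mean without it is also given. Across the 17309 genes above the minimum, pairs of samples correlated with r from 0.985 to 0.991, a description over genes, which are not independent replicates.

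The melanotroph markers were present in every WT sample. Pomc (ENSMUSG00000020660, chromosome 12 from 3954945 to 3960643 of GRCm38) had levels of 19.00, 18.28, 18.57 and 18.00 (18.46 ± 0.43, n = 4), rank 4 in each of the 4 samples and rank 3 per kilobase. The rank per kilobase leaves out genes without a length, among them the gene at rank 3 by level. Pomc made up 4.07%, 2.80%, 3.07% and 2.29% of the summed linear values. Replicate 1 was the highest and replicate 4 the lowest of the 4.

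Pcsk2 (ENSMUSG00000027419, chromosome 2 from 143546133 to 143816284) had levels of 14.10, 13.60, 13.87 and 13.46 (13.76 ± 0.28, n = 4) and rank 28. The samples stood in the same order for Pcsk2 as for Pomc. The Pomc level per kilobase exceeded that of Pcsk2 by 7.14, 6.91, 6.93 and 6.77 on the log2 scale, a mean of 6.94 ± 0.15 (SD, n = 4) or 122-fold.

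The 2 factors were even between samples. Pax7 (ENSMUSG00000028736, chromosome 4 from 139737059 to 139833530) had levels of 11.78, 11.45, 11.52 and 11.67 (11.60 ± 0.15, n = 4) and rank 290. Tbx19 (ENSMUSG00000026572, chromosome 1 from 165137834 to 165160773) had levels of 10.80, 10.58, 10.68 and 10.81 (10.72 ± 0.11, n = 4) and rank 809. For both genes replicate 2 was the lowest, by a small margin. Their order depended on length. The Pax7 level exceeded that of Tbx19 by 0.89 ± 0.06 (log2, SD, n = 4). Per kilobase Pax7 was lower by 0.25 ± 0.06 as a mean, and lower in all 4 samples. The same 2 lengths were used in every sample, so the order per kilobase is only as certain as these lengths.

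The bases just before the start of transcription of these genes, and of Prl, are shown because of a shared motif. Pomc and Prl have the exact TATA box motif TATAAA, which is not in the same window of the other 3. The 50 bases upstream of the listed start, from RefSeq GRCm38.p6 and read 5′ to 3′ on the gene's strand, are given with TATAAA in capitals. They lie at chr12:3954895-3954944 on the plus strand for Pomc, chr13:27057520-27057569 on the plus strand for Prl, chr2:143546083-143546132 on the plus strand for Pcsk2, chr4:139832969-139833018 on the minus strand for Pax7 and chr1:165160774-165160823 on the minus strand for Tbx19. The listed start of Pax7 lies inside the gene's span given above, so its window is not upstream of the gene's outermost start.
Pomc: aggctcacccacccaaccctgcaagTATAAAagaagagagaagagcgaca
Prl: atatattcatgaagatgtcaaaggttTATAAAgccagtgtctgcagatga
Pcsk2: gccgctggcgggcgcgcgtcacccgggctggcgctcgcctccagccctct
Pax7: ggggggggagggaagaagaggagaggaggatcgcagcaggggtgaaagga
Tbx19: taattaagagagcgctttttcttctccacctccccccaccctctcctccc

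The motif began 25 bases before the start in Pomc and 24 bases before it in Prl. Searched on the gene's strand in the same 50 bases, TATAAA was found in 7 of the 100 highest genes with a listed promoter (7%): Pomc, Meg3, Prl, Ddx5, Eef2, Cga and Sod1. It was found in 1.25% of the genes at ranks 101 to 500, in 1.74% of the 11176 promoters of genes above the minimum and in 3.15% of all 27025 promoters. On the other strand, where the motif reads TTTATA, the shares were 3% in the 100 highest genes and 0.599% in genes above the minimum. Of these 7 genes, 3 encode pituitary hormones or a hormone subunit. The rest include the translation factor Eef2, the RNA helicase Ddx5 and superoxide dismutase Sod1. Only the exact motif was counted, so near forms such as tatataag before Hspa5 and tataag before Scg2 were left out. Gh had no listed promoter and was not searched. The ranks of Prl and Cga rest on replicate 2: they were 32 and 92 over all 4 samples, and 100 and 135 without it.

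The distribution of levels was steep. Of 29527 genes, 17309 were above the minimum, 10219 had a mean of at least 100 on the linear scale, 1693 of at least 1000 and 40 of at least 10000, and 5393 had a mean at or below 0 on the log2 scale. The linear values of the mean levels were summed over genes. The highest gene took 20.1% of this sum, the 10 highest 38%, the 100 highest 46.3% and the 1000 highest 64.7%. Both mitochondrial ribosomal RNAs, mt-Rnr2 with a level of 21.19 ± 0.28 and mt-Rnr1 with 19.17 ± 0.31 (SD, n = 4), together took 25.1%. Without them the 100 highest genes took 28.4% and Pomc 4.06%.

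**Figure D1:**
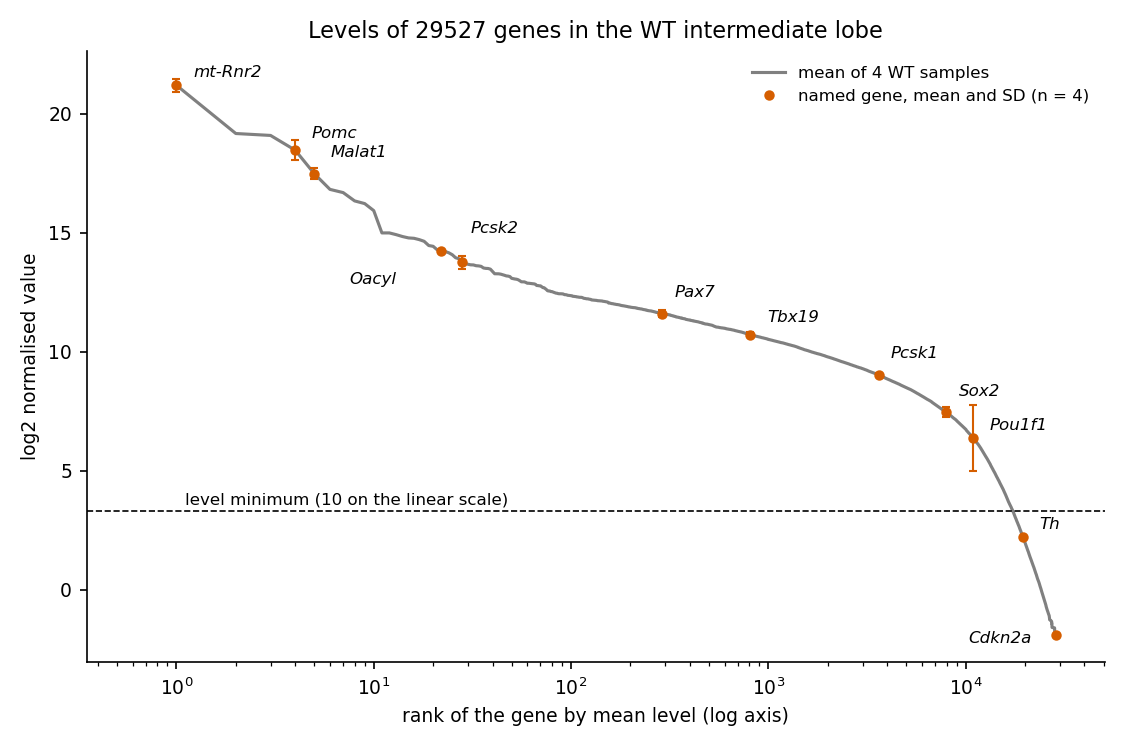
Mean log2 normalised value of 29527 genes over the 4 WT samples against rank on a log axis, with named genes as points and SD bars (n = 4) and the minimum of 10 as a dashed line. Pomc sits at rank 4 near the top of the curve, Pcsk2 at rank 28, Pax7 and Tbx19 at ranks 290 and 809, and Th below the minimum.

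Beside Pomc, the 10 highest genes were the mitochondrial ribosomal RNAs, 4 mitochondrial messenger RNAs, the nuclear long non-coding RNA Malat1 and 2 genes without a symbol. Malat1 had levels of 17.30, 17.43, 17.81 and 17.36 (17.48 ± 0.23, n = 4), rank 5 by level and rank 10 per kilobase. ENSMUSG00000106106, which has no symbol in the reference used here, had rank 3 with 19.76, 19.12, 18.86 and 18.59 (19.08 ± 0.50, n = 4). It had a higher deposited level than Pomc in all 4 samples, and no length was at hand to divide it by.

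The next ranks held Peg3, Meg3 and Gnas, which are known to be imprinted. Peg3, a zinc-finger protein expressed from the paternal allele, had levels of 14.99, 15.03, 14.96 and 14.97 (14.99 ± 0.03, n = 4) and rank 11. Meg3, a maternally expressed long non-coding RNA, had 14.60, 15.06, 14.53 and 15.16 (14.84 ± 0.32, n = 4) and rank 14. Gnas, which encodes the stimulatory G protein subunit, had 14.75, 15.07, 14.34 and 14.39 (14.64 ± 0.34, n = 4) and rank 18. Peg3 was nearly the same in every sample, while the other 2 spread over more than 0.6 between samples.

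Oacyl, an acyltransferase-like gene and the highest of the list of pituitary lineage genes, had levels of 14.26, 14.19, 14.30 and 14.18 (14.23 ± 0.06, n = 4) and rank 22, rank 35 per kilobase. Its samples lay closer together than those of any melanotroph marker. Its level per kilobase was below that of Pomc by 6.52, 5.86, 6.04 and 5.59 on the log2 scale.

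The order within the 40 highest genes was often within the spread. Of 39 neighbouring pairs in that order, 6 had a gap above the pooled SD of the pair and 8 stood in the same order in all 4 samples. Pomc was separated from the gene above it by 0.62 and from Malat1 below it by 0.99, both above the pooled SD. Pcsk2 and the chaperone gene Hsp90ab1, next in rank, were 0.04 apart with a pooled SD of 0.20. Of the 100 highest genes in each sample, 74 were shared by all 4 samples and 132 were in that list in at least 1 sample.

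Length changed the ranking of many genes. Of the 100 highest genes with a known length, 46 were also among the 100 highest per kilobase. The median length was 3.91 kb in the 100 highest by level and 0.945 kb in the 100 highest per kilobase, against 3.07 kb for all 14865 genes above the minimum with a length. Ttn, the giant muscle protein titin, went from rank 19 to rank 2522 per kilobase. Cytosolic ribosomal protein genes, which are short, made up 2 of the 100 highest genes by level and 27 per kilobase.

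Prohormone processing genes were all detected. Of 15 listed genes, all 15 were above the minimum and 12 had a mean of at least 100, and the list's median level was 9.03, at percentile 87.8 of all genes. Pcsk1, the convertase that makes adrenocorticotropic hormone, had levels between 8.98 and 9.10 in the 4 samples (9.03 ± 0.06, n = 4) and rank 3617. Per kilobase, Pcsk2 exceeded Pcsk1 by 4.17, 3.74, 4.08 and 3.65 on the log2 scale (3.91 ± 0.25, n = 4), or 15.0-fold. The difference was far larger than its spread.

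Cpe, the carboxypeptidase that trims the cut peptides, had levels of 12.29, 12.05, 12.28 and 11.74 (12.09 ± 0.26, n = 4). Pcsk2 exceeded it per kilobase by 0.49 ± 0.12 (log2, SD, n = 4), in all 4 samples, with the same lengths in each. Pam, the amidating enzyme, had 11.56, 11.56, 11.74 and 11.40 (11.57 ± 0.14, n = 4). Scg5, the chaperone 7B2 of prohormone convertase 2, had 11.69, 12.21, 11.65 and 11.29 (11.71 ± 0.38, n = 4), highest in replicate 2, and 11.54 ± 0.22 without that replicate (n = 3).

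Further members were Furin with a level of 7.60 ± 0.05 and Pcsk6, the lowest and most variable, with 5.64, 6.82, 5.87 and 5.48 (5.95 ± 0.60, n = 4). Furin is the convertase of the general secretory pathway. Pcsk6 was higher in replicate 2, and its mean without it was 5.66 ± 0.19 (n = 3).

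Genes of secretory granules and exocytosis had a higher median level. All 25 listed genes were above the minimum, 22 had a mean of at least 100, and the median level of 10.88 lay at percentile 97.7. Chgb, the granin chromogranin B, had levels of 14.14, 14.96, 13.85 and 13.67 (14.16 ± 0.57, n = 4), and 13.89 ± 0.24 without replicate 2 (n = 3). Scg2, secretogranin 2, had 13.43, 13.71, 13.78 and 13.50 (13.60 ± 0.17, n = 4). Their order was not fixed: per kilobase, Chgb exceeded Scg2 by 0.41 ± 0.54 (log2, SD, n = 4), with Chgb higher in 3 of 4 samples.

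Chga, chromogranin A, had 12.71, 12.15, 12.35 and 12.04 (12.31 ± 0.29, n = 4). Per kilobase it was below Chgb in all 4 samples, by 0.88, 2.27, 0.96 and 1.09 on the log2 scale. The membrane fusion genes were even: Snap25 had a level of 13.27 ± 0.04 and the calcium sensor Syt1 of 12.39 ± 0.04 (SD, n = 4). Cplx1 had a level of 3.81 ± 0.10, Vgf of 4.73 ± 0.29 and Cplx2 of 11.27 ± 0.13.

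**Figure D2:**
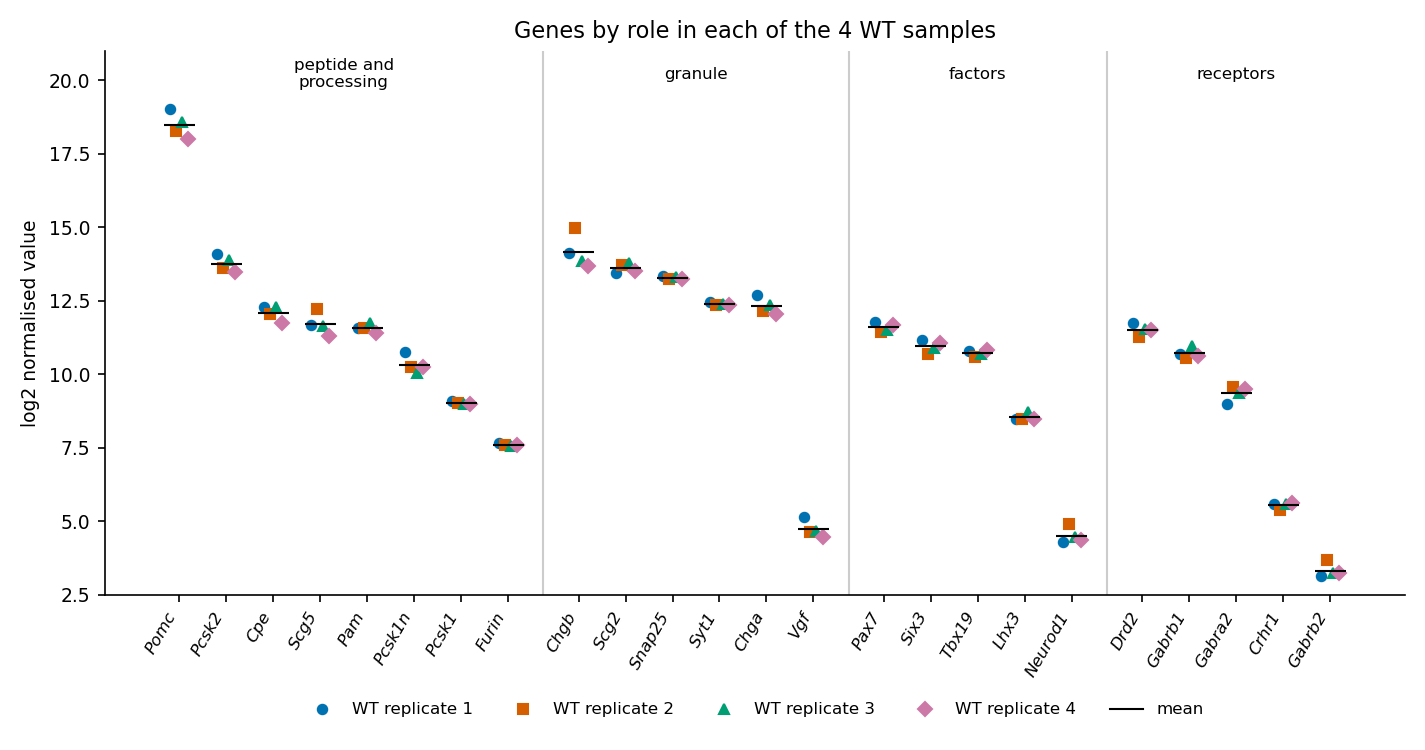
Log2 normalised value of genes of peptide processing, granules, transcription factors and receptors in each of the 4 WT samples, marked by replicate, with the mean as a bar. Pomc lies at 18.00 to 19.00 above all other genes drawn, Chgb of replicate 2 stands above the other 3 samples at 14.96, and Vgf, Neurod1 and Gabrb2 lie lowest.

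Of the 16 listed pituitary lineage genes 13 were above the minimum and 9 had a mean of at least 100. Six3, a homeobox factor of the early pituitary, had a level of 10.95 ± 0.22, Six6 of 10.23 ± 0.12 and Lhx3, needed for pituitary growth, of 8.54 ± 0.11 (SD, n = 4). Pitx1 had 7.76 ± 0.15. Neurod1, a corticotroph factor, had 4.30, 4.90, 4.48 and 4.37 (4.51 ± 0.27, n = 4). Hesx1, which acts in the embryonic gland, was below the minimum at -0.14 ± 0.06.

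Neurod4 was the most variable gene of that list. Its levels were 4.98, 6.74, 4.44 and 4.73 (5.23 ± 1.04, n = 4). Replicate 2, in which it was highest, was also the sample with the highest Prl, Gh and Pou1f1, and the part of anterior lobe tissue in this was not tested. Without replicate 2, Neurod4 had a level of 4.72 ± 0.27 (n = 3).

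Receptors for the inhibitory inputs were measured beside the enzymes that make the transmitters. Drd2, the dopamine D2 receptor, had levels of 11.76, 11.26, 11.55 and 11.50 (11.52 ± 0.20, n = 4) and rank 325. The GABA-A receptor subunit gene Gabrb1 had 10.69, 10.57, 10.95 and 10.63 (10.71 ± 0.17, n = 4) and rank 819. Drd2 was lowest in replicate 2, and Gabrb1 was highest in replicate 3.

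Other GABA-A subunits covered a wide range of levels. Gabra2 had a level of 9.35 ± 0.27, Gabrg1 of 8.06 ± 0.15, Gabra4 of 7.73 ± 0.17 and Gabre of 7.14 ± 0.16 (SD, n = 4). Gabrb2, a subunit common in brain, had 3.33 ± 0.24, just above the minimum, and Gabrd was below it at 2.66 ± 0.05.

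The B-type receptor genes Gabbr1 and Gabbr2 had levels of 8.99 ± 0.33 and 6.45 ± 0.22. The corticotropin-releasing hormone receptor Crhr1 had 5.59, 5.39, 5.58 and 5.62 (5.55 ± 0.11, n = 4), the vasopressin receptor Avpr1b 4.61 ± 0.22, and Crhr2 lay at -1.60 in all 4 samples. Of 26 measured receptors, 22 were above the minimum, and the median level of 6.12 over the 26 lay at percentile 61.0. The most variable was the somatostatin receptor Sstr3 with 6.24 ± 0.39. Sstr1 had 7.31 ± 0.17, while Sstr2 was below the minimum at 1.64 ± 0.03.

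Gad2, which makes GABA from glutamate, was high in all samples, with levels of 11.33, 11.10, 10.67 and 10.73 (10.96 ± 0.31, n = 4) and rank 616. Its relative Gad1 had 1.89, 1.88, 2.12 and 2.46 (2.09 ± 0.28, n = 4), below the minimum. The Gad2 level per kilobase exceeded that of Gad1 by 8.77, 8.55, 7.88 and 7.59 on the log2 scale. Because Gad1 is below the minimum, the size of this difference and its change between samples are uncertain. Slc32a1, the vesicular GABA carrier, was below the minimum at 0.48 ± 0.02, as were Th, tyrosine hydroxylase, at 2.21 ± 0.06 and the dopamine carrier Slc6a3 at -1.37 in all 4 samples. Of this list's 11 genes, 7 were above the minimum, among them the monoamine carrier Slc18a2 with 6.18 ± 0.28, Ddc with 4.34 ± 0.17 and the neuronal genes Rbfox3 with 9.06 ± 0.25 and Tubb3 with 6.91 ± 0.13.

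Most precursors of other peptides were below the minimum. Of 20 measured genes, 6 were above the minimum and 1, Pdyn, had a mean of at least 100, with levels of 7.82, 7.76, 7.89 and 7.84 (7.83 ± 0.06, n = 4). Pdyn encodes the dynorphin precursor. Gal, galanin, had 5.76, 5.95, 5.67 and 4.63 (5.50 ± 0.59, n = 4), lowest in replicate 4, and was the most variable member. Penk, the enkephalin precursor, had 4.38 ± 0.17, and Nts was at the lowest value of the list, -1.88 in all 4 samples.

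Genes that load and fold secretory proteins were all well above the minimum. All 23 listed genes had a mean of at least 100, and their median level of 10.03 lay at percentile 94.6. Hsp90b1, an endoplasmic reticulum chaperone, had levels of 14.17, 14.29, 14.31 and 14.07 (14.21 ± 0.12, n = 4), and the chaperone BiP, Hspa5, had 13.72, 13.73, 13.78 and 13.46 (13.67 ± 0.14, n = 4). In Hspa5, replicate 4 lay apart from 3 samples that were within 0.06 of each other. Creb3l2, a membrane-bound transcription factor of the secretory pathway, had 12.14 ± 0.11, Xbp1 10.03 ± 0.17 and the stress gene Ddit3, the lowest, 7.06 ± 0.23. Replicate 1 was highest in 16 of the 23 genes and replicate 4 lowest in 16.

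Stem cell and epithelial markers had a median level of 7.93, at percentile 77.7. Of 14 genes 13 were above the minimum. Sox2 had levels of 7.34, 7.39, 7.75 and 7.34 (7.46 ± 0.20, n = 4) and Sox9 8.44, 8.32, 8.53 and 8.60 (8.47 ± 0.12, n = 4). Cyp2f2, a cytochrome P450, was the highest of the list with 11.84, 11.68, 11.69 and 11.70 (11.73 ± 0.08, n = 4), and exceeded Sox9 per kilobase by 4.40 ± 0.15 (log2, SD, n = 4). Epcam had 10.84 ± 0.15 and S100b 4.91 ± 0.12.

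Cell cycle genes had a median level of 5.48, at percentile 56.3. Of 19 proliferation genes 18 were above the minimum and 6 had a mean of at least 100, led by Pcna with 8.67 ± 0.18. Mki67 had levels of 6.79, 8.12, 7.27 and 7.26 (7.36 ± 0.55, n = 4), highest in replicate 2, and 7.11 ± 0.27 without that replicate (n = 3). The mitotic cyclin gene Ccnb1 had 4.29 ± 0.13 and Plk1 was below the minimum at 3.20 ± 0.14. Among inhibitors of cyclin-dependent kinases, Cdkn1b, which encodes P27, was the highest with 8.54, 8.85, 8.39 and 8.66 (8.61 ± 0.19, n = 4), and Cdkn2a lay at -1.88 in all 4 samples.

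Genes of the circadian clock were all detected. All 18 were above the minimum, 17 had a mean of at least 100, and the median level of 9.18 lay at percentile 89. Ciart was the lowest with 4.43 ± 0.24. Clock had 11.02 ± 0.06, Arntl 9.14 ± 0.15 and Per3, the most variable, 9.68, 10.45, 10.30 and 10.49 (10.23 ± 0.38, n = 4). Immediate early genes were lower, with a median level of 5.60 at percentile 57.3. They were led by Nr4a2 with 9.46 ± 0.29, while Fos had 6.08, 5.66, 5.35 and 5.32 (5.60 ± 0.35, n = 4). Replicate 1 was highest in 11 of the 20 immediate early genes above the minimum, Fosb with 5.82 against 4.41 to 4.64 among them. The same sample was highest in most members of several other lists, so this count is not particular to these genes.

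Genes of energy metabolism had high median levels. The 13 mitochondrially encoded messenger RNAs had a median level of 13.61, at percentile 99.9. mt-Co1, a subunit of cytochrome oxidase, had 16.98, 16.41, 16.99 and 16.36 (16.68 ± 0.35, n = 4). Replicate 2 was lowest in 11 of the 13. All 36 measured nuclear genes of the respiratory chain had a mean of at least 100, with a median of 9.20, led by Atp5b with 12.88 ± 0.09, and of 17 glycolytic genes the median was 9.87 and Pgam1 the highest with 11.46 ± 0.13, while Hk2 was the lowest with 5.72 ± 0.28.

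Most ribosomal protein genes differed between samples in the same direction. All 78 measured genes had a mean of at least 100, and their median level was 10.53. Rpl4 was the highest with 13.05, 12.91, 12.79 and 12.58 (12.83 ± 0.20, n = 4). Replicate 1 was highest in 71 of the 78 genes and replicate 4 lowest in 48. The mean deviation from the 4-sample mean was 0.34, -0.01, -0.13 and -0.20. Because replicate 1 was highest in most members of several other lists too, its count here is not particular to ribosomal protein genes. General reference genes were also highest in replicate 1 in 15 of 20 cases, with Actb at 12.15, 11.67, 11.66 and 11.75 (11.81 ± 0.23, n = 4) and Gapdh at 10.88, 10.36, 10.26 and 10.35 (10.46 ± 0.28, n = 4). Gusb was even, with 7.93 ± 0.03.

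Rps3a1 went against most other ribosomal protein genes. Its levels were 10.91, 12.47, 12.32 and 12.18 (11.97 ± 0.71, n = 4), lowest in replicate 1. Rps3a3 and Rps3a2, pseudogene copies of it on chromosomes 13 and 14, were named after their values were seen, because they did the reverse: Rps3a3 had 11.57, 5.28, 4.24 and 4.18, and Rps3a2 had 9.32, 5.74, 5.85 and 5.47. Summed on the linear scale, the 3 genes had log2 values of 12.45, 12.50, 12.34 and 12.20 (12.37 ± 0.13, n = 4), so the spread of the sum was well under that of each gene. How the counting shared reads among these copies was not tested, and the level of each copy is uncertain.

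Anterior lobe transcripts were present in every dissected IL and differed between samples. Of 11 measured genes, 10 were above the minimum, and 6 had an SD of at least 0.5, against 1.74% of all genes above the minimum. Prl, prolactin, had levels of 13.09, 17.54, 12.55 and 11.40 (13.64 ± 2.69, n = 4), and its rank was 54, 5, 85 and 350. Replicate 2 exceeded the next sample by more than 4 on the log2 scale. Prl took 1.68% of the summed linear values in replicate 2 and 0.0234% to 0.0676% in the other 3, and its level without replicate 2 was 12.35 ± 0.87 (n = 3).

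Gh, growth hormone, had levels of 12.32, 14.35, 13.14 and 12.27 (13.02 ± 0.97, n = 4), and Cga, the common glycoprotein hormone subunit, 11.46, 13.25, 12.28 and 12.64 (12.41 ± 0.75, n = 4). Both were highest in replicate 2, by less than Prl, and without it had 12.58 ± 0.49 and 12.13 ± 0.61 (n = 3). The order of Prl and Gh was not fixed: per kilobase, Prl exceeded Gh by 0.72 and 3.14 in replicates 1 and 2 and differed from it by -0.65 and -0.93 in replicates 3 and 4. Pou1f1, the factor of the somatotroph and lactotroph lineage, had 5.59, 8.41, 6.16 and 5.34 (6.37 ± 1.40, n = 4), and Gnrhr, the gonadotroph receptor, 8.09, 9.83, 8.13 and 8.92 (8.74 ± 0.82, n = 4). Without replicate 2 these were 5.69 ± 0.42 and 8.38 ± 0.47 (n = 3).

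Fshb, the subunit of follicle-stimulating hormone, followed another order, with 7.15, 9.24, 9.61 and 9.64 (8.91 ± 1.19, n = 4). It was low in replicate 1, which also had the lowest Cga. Tshb had 5.51 ± 0.21 and Gata2 5.99 ± 0.18, and neither varied much between samples. The summed anterior lobe markers took 0.134%, 1.97%, 0.168% and 0.135% of the linear values.

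Posterior lobe markers ran opposite to Prl in replicate 2. Of the 10 genes 9 were above the minimum, 7 had an SD of at least 0.5, and all 9 were lowest in replicate 2. Scn7a, a sodium channel of glia, had levels of 11.36, 9.41, 11.54 and 11.96 (11.07 ± 1.13, n = 4), and Col25a1 8.84, 7.03, 9.31 and 9.73 (8.73 ± 1.19, n = 4). Without replicate 2 these were 11.62 ± 0.31 and 9.29 ± 0.45 (n = 3). Avp, vasopressin, had 5.56, 4.40, 5.75 and 5.83, and Oxt, oxytocin, 5.98, 4.04, 5.49 and 5.16. The lowest member, Aldh1l1, was at 2.86 ± 0.15, and the summed list took 0.0297%, 0.0111%, 0.0356% and 0.0500% of the linear values.

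In replicate 2 the melanotroph genes did not follow Prl, although in replicates 1, 3 and 4 Prl, Pomc and Pcsk2 stood in the same order. Pomc was second lowest in replicate 2, and the means without it were 18.53 ± 0.50 for Pomc, 13.81 ± 0.32 for Pcsk2, 11.66 ± 0.13 for Pax7 and 10.76 ± 0.07 for Tbx19 (n = 3). These lie within 0.1 of the means over all 4 samples. The parts of neighbouring tissue and of sex in the levels of replicate 2 were not tested.

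**Figure D3:**
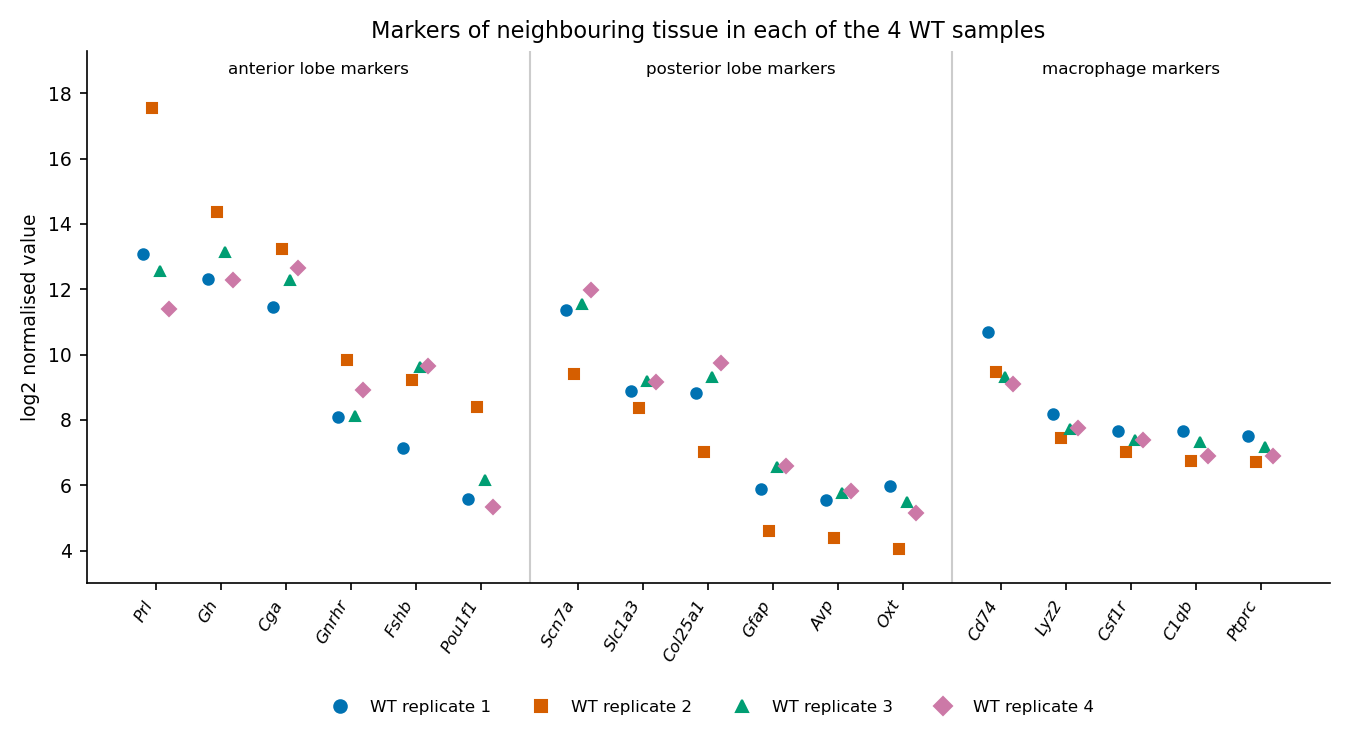
Log2 normalised value of anterior lobe, posterior lobe and macrophage markers in each of the 4 WT samples, marked by replicate. Replicate 2 is highest in Prl (17.54), Gh, Cga, Gnrhr and Pou1f1 and lowest in all 6 posterior lobe genes drawn, and replicate 1 is highest in all 5 macrophage genes drawn.

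Markers of other cell types were also detected. Of 13 macrophage and microglia markers all were above the minimum, with a median level of 6.48 at percentile 64.0. Cd74 was the highest of them with 10.69, 9.46, 9.32 and 9.12 (9.65 ± 0.71, n = 4). The list's summed share was 0.0256% in replicate 1 and between 0.0146% and 0.0150% in replicates 2 to 4. The part of these cells in other values of replicate 1 was not tested.

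Endothelial markers were detected, with 11 of 12 above the minimum and a median level of 5.72 at percentile 58.1. Kdr, the receptor of vascular endothelial growth factor, was the highest with 7.21 ± 0.13, and Cldn5 the lowest with 1.83 ± 0.08. Their summed share ranged from 0.00475% to 0.00666%. Of 11 fibroblast and mural markers 10 were above the minimum, led by Dcn with 10.94, 10.28, 11.01 and 10.83 (10.77 ± 0.33, n = 4), and their share ranged from 0.0319% to 0.0394%.

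Myelin genes were measured in all samples, with 4 of 8 markers above the minimum. Mbp had levels of 8.76, 8.12, 9.58 and 9.88 (9.08 ± 0.80, n = 4), and 9.41 ± 0.58 without replicate 2 (n = 3). All 4 markers above the minimum were lowest in replicate 2, and the list's share ranged from 0.00789% to 0.0185%. Red blood cell markers had 3 of 5 above the minimum, with Hba-a2 at 8.30, 6.71, 6.72 and 7.36 (7.27 ± 0.75, n = 4) and shares from 0.00223% to 0.00531%. Hba-a1 and Hba-a2 are near-identical copies, so the level of each is uncertain.

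On the deposited scale, the spread between the 4 samples was small for most genes. The transformation is not stated, and whether it narrows these SDs was not tested. The median SD of the 17309 genes above the minimum was 0.164 and the 90th percentile 0.315. An SD of at least 0.5 was found in 301 genes (1.74%) and of at least 1 in 43, while 3314 (19.1%) had an SD below 0.1. The median SD was 0.151 in genes whose mean level had a linear value of 10 to 30, 0.193 at 30 to 100 and 0.134 at 1000 to 3000. It was 0.312 in the 40 highest genes, of which 15% had an SD of at least 0.5.

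Among genes with a mean of at least 100, the smallest SDs belonged to Dsg2, Gna13, Tmem39a, Pdpk1, Kdm5a, Saal1, Cbr4, Scamp1, Slc35b4 and Dab2ip. Pdpk1, a kinase of the insulin pathway, had levels of 10.44, 10.44, 10.44 and 10.45. Gprasp1, a receptor-sorting protein, was the most even of the 40 highest genes, with 13.49, 13.53, 13.54 and 13.50 (13.52 ± 0.02, n = 4). None of these genes belonged to a list of general reference genes.

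**Figure D4:**
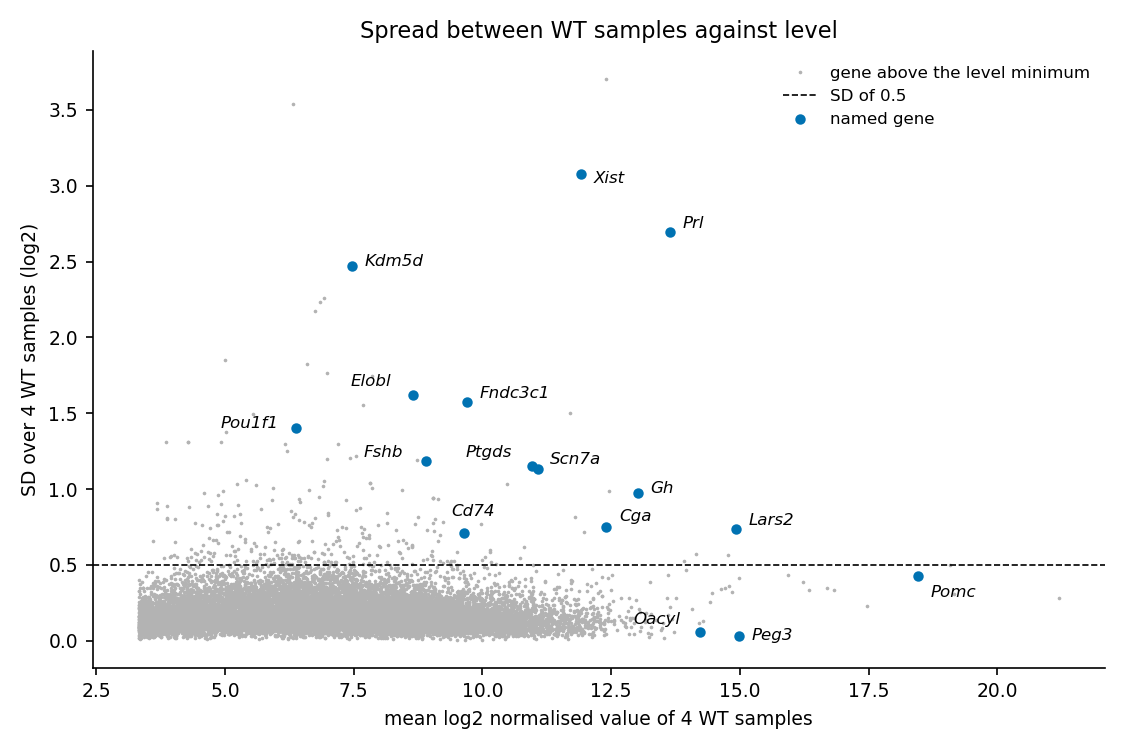
SD over the 4 WT samples against mean log2 normalised value for the 17309 genes above the minimum, with named genes as larger points and the SD of 0.5 as a dashed line. Xist and Prl have SDs of 3.08 and 2.69, 2 genes lie above Xist, and Pomc lies just under the line at 0.43.

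The largest SDs with a symbol and a mean of at least 100 belonged to Xist, Prl and 4 genes of the Y chromosome. Xist, the RNA that silences an X chromosome in females, had levels of 14.32, 14.82, 9.29 and 9.22 (11.91 ± 3.08, n = 4). Kdm5d, on the Y chromosome, had 5.44, 5.22, 9.64 and 9.57 (7.47 ± 2.47, n = 4), and Eif2s3y, Ddx3y and Uty showed the same split with SDs of 2.26, 2.23 and 2.17. Replicates 1 and 2 thus had the female pattern and replicates 3 and 4 the male pattern.

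A further set was low in replicate 2. Fndc3c1 had levels of 9.95, 7.42, 10.58 and 10.88 (9.71 ± 1.57, n = 4), Gpr50, an orphan receptor related to melatonin receptors, 7.79, 5.26, 7.69 and 8.02 (mean 7.19, n = 4), and Col23a1 7.45, 5.75, 7.98 and 8.53 (7.43 ± 1.20, n = 4). Slc1a2, a glutamate carrier of glia, had 8.43 ± 0.99 (SD, n = 4), with 8.62 to 9.29 outside replicate 2. In each of the 4 genes the other 3 samples lay above replicate 2 by more than 1.5. Without it the means were 10.47 ± 0.47 for Fndc3c1, 7.84 ± 0.17 for Gpr50, 7.99 ± 0.54 for Col23a1 and 8.91 ± 0.35 for Slc1a2 (n = 3).

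Replicate 3 stood apart in other genes. Ptgds, prostaglandin D synthase of the brain coverings, had 12.58 in replicate 3 and at most 10.98 in the other samples (10.96 ± 1.15, n = 4). Elobl, a copy of the elongin B gene Elob, had 9.54, 9.77, 6.27 and 9.05 (8.66 ± 1.62, n = 4), and Pttg1, securin, had 7.29, 8.21, 5.94 and 8.71 (7.54 ± 1.22, n = 4), both lowest in replicate 3. Elob itself, named after its values were seen, had 8.82, 8.49, 8.44 and 8.35, so the sum of both genes spread as well, with an SD of 0.72. The pseudogenes Gm5641 and Gm7334 were also lowest in replicate 3, with levels of 5.81 and 5.59 against means of 7.68 and 6.90.

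Lars2, which encodes mitochondrial leucyl-tRNA synthetase, was the most variable of the 20 highest genes, with 15.96, 14.90, 14.34 and 14.46 (14.92 ± 0.74, n = 4) and rank 13. Of the 301 genes with an SD of at least 0.5, the sample farthest from the mean was replicate 1 in 108, replicate 2 in 101, replicate 3 in 75 and replicate 4 in 17.

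**Figure D5:**
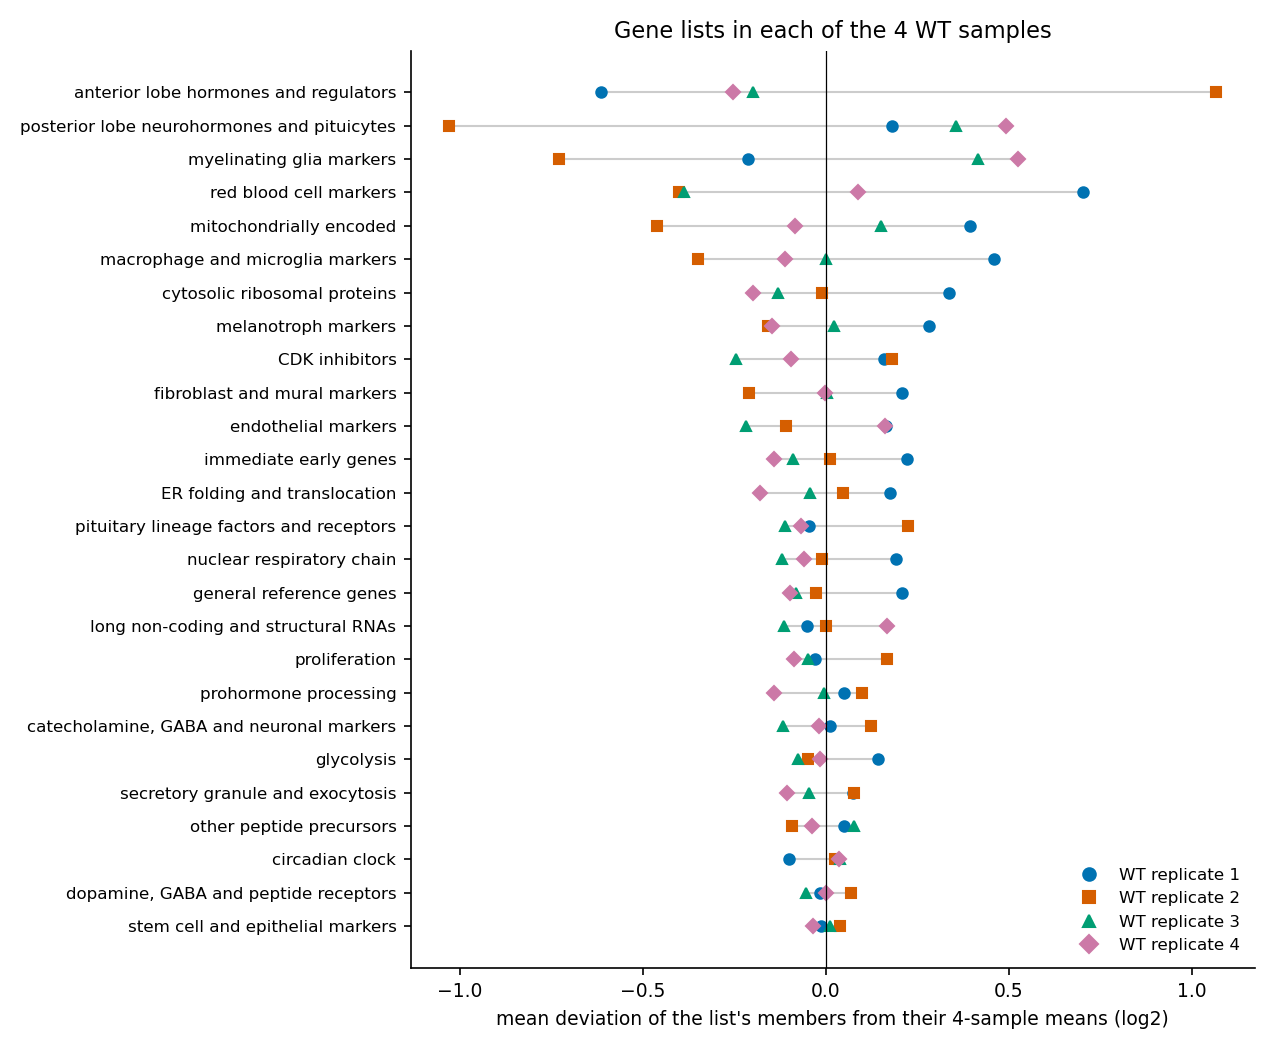
Mean deviation of each gene list from the 4-sample means of its members, on the log2 scale, in each WT sample, without the sex-linked list. Anterior lobe (1.07) and posterior lobe (-1.03) markers of replicate 2 lie farthest from 0, and stem cell, receptor and clock genes lie within 0.1 of 0 in every sample.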

How the data were processed

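RNA from the dissected IL of 10 mice was sequenced, and the 4 WT samples were analysed. The authors amplified cDNA (Ovation RNA-seq System V2), aligned reads with STAR 2.5.2a, counted them per gene with RSEM 1.3.30 on Ensembl release 89 of GRCm38, normalised with DESeq2 1.18.1 and deposited log2 values. The transformation is not given in the sources used here; values of genes with few reads differ little between samples, so their SDs are small. Symbols and lengths came from GENCODE models of another release than the one used for counting. They covered 85.9% of the genes above the minimum, with the longest transcript as the length. Promoters came from RefSeq GRCm38.p6. Ranks, means and SDs were computed with Python 3.11.15, numpy 2.4.6 and pandas 2.3.3, drawn with matplotlib 3.10.9 and tested on simulated data. No test between groups was run.

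Genes named were the 40 highest, the 4 melanotroph markers, the 20 largest and 10 smallest SDs at means of at least 100, members of 27 gene lists and, per sample, the 5 genes lying farthest from the other 3, with exceptions stated. Some genes are not reported here. The members and lists were chosen with earlier results of these data known. Alternatives were median centring, quantile normalization, medians, other minima, means of the linear values, levels per kilobase and each replicate left out. Leaving out mitochondrial ribosomal RNAs or sex-linked genes was added after seeing the data.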

Additional observations from a re-analysis of the deposited data

Results flagged for a closer look

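A sample lay far from the other 3 in 10 of the 144 named genes and in 1 of 27 list means. The measure is the gap of the highest or lowest sample to its nearest neighbour over the whole range, set against Dixon’s 95% critical value for 4 samples. Of these 171 values 11 passed. Chance passes about 1 in 20 groups, but some genes were named for a sample lying apart or for a large SD, so no chance count applies.

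Replicate 1 was the sample apart in 6 of them. It was highest in Cyp2f2 (0.883), the granule gene Cplx2 (0.913), Gapdh (0.844) and Fosb (0.838), and lowest in Fshb (0.838) and in the mean of the circadian clock genes (0.909). Replicate 3 was highest in Lhx3 (0.935) and in Sox2 (0.885), with 7.75 against 7.34 to 7.39. Replicate 4 was lowest in Hspa5 (0.831) and highest in Hesx1 (0.985), whose mean of -0.14 is below the minimum. Replicate 2 was lowest in Gpr50 (0.881). No cause was tested.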

How the results depend on the processing

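After quantile normalization, the mean level of Gprasp1 was 13.55, more than its SD of 0.02 from the value given. Leaving out 1 of 4 samples or taking the median cannot move a mean by more than its SD, so those settings say nothing about the stability of single genes. The median percentile of the sex-linked list ranged from 61.9 to 74.6 with 1 replicate left out. Per kilobase, among the 14865 genes above the minimum with a length, the 100 highest took 62.7% of the sum and Pomc had rank 3. Over all genes these were 46.3% and rank 4. ENSMUSG00000106106, above Pomc by level, has no length and was left out per kilobase. Without both mitochondrial ribosomal RNAs, an alternative added after seeing the data, the values were 28.4% and rank 2. The median SD of 0.164 was 0.109 with no minimum, and ranged from 0.143 to 0.167 with 1 replicate left out. The count of 301 genes with an SD of at least 0.5 was 152 at a minimum of 100 and ranged from 289 to 478 with 1 replicate left out, the highest without replicate 4. Per kilobase, 22 of 27 list percentiles differed by more than the SD of the percentile over the 4 samples. Those percentiles were taken among the 14865 genes above the minimum with a length, not among all 29527. List members outside that set were left out, and how much of the difference comes from length was not tested. Depth is unknown, so the precision of low levels cannot be given. No paired analysis was possible because the results come from 1 genotype and from no test between groups.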
